A study of Mus musculus with 24 samples.

Results

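The genes described here encode 9 adhesion proteins of leukocytes: the integrin chains Itgb2, Itgam, Itgal, Itgax, Itgb1 and Itga4, the selectin ligand Selplg, the hyaluronan receptor Cd44 and the integrin ligand Icam1. They were chosen by gene symbol and not by a cut on their values, though earlier results of these data were known. All 9 were found, on 1 row each, among the 18474 rows of one deposited count table and the 22505 rows of the other, and all 9 passed the filter on low counts in both. Together they took 0.394% to 1.31% of the counts of a library in the first table and 0.426% to 0.825% in the second. No selectin gene is among the 9.

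Bulk RNA of preparations labelled as neutrophils was sequenced from NOD.c3c4 mice, which are prone to autoimmune biliary disease. Treated mice were given PDC166-coated nanoparticles intravenously, 10 times, and the series asks what this therapy does to liver and blood neutrophils. One table holds treated liver (n = 2), untreated liver (n = 2), treated blood (n = 2) and untreated blood (n = 3). The other holds liver neutrophils of treated mice that also received an antibody: 3 libraries each with anti-GCF and anti-IL21R, 2 each with anti-TGFb, anti-IL35 and anti-IL10, and 3 with an isotype control antibody. What anti-GCF binds is not spelled out in the labels. Every group shares the strain, and every group of the antibody table shares the nanoparticle therapy. The age of the mice and how the neutrophils were purified are not given in the sources used here. Whether replicates came from separate animals is not stated, so p-values measure only the spread between these samples, which may be technical.

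Libraries held 34.7 M to 46.4 M counts in the first table and 23.6 M to 47.5 M in the antibody table (M, mega). The library numbers of treated and untreated samples form separate ranges, so a preparation batch and the therapy cannot be told apart. The labelled cell type was checked with 20 neutrophil genes such as S100a8, Ly6g and Csf3r. Levels are given in CPM, counts per 1 M of a library total multiplied by the library's TMM scaling factor. These factors ran from 0.698 to 1.25 in the first table and from 0.758 to 1.35 in the antibody table. The neutrophil genes summed to 226370.0 to 228578 CPM in treated liver and 34319.7 to 37916 CPM in untreated liver. In blood they summed to 96670.4 to 99776 CPM (treated) and 120030.0 to 296661 CPM (untreated). The untreated liver libraries also held 15450.2 to 21084 CPM of 17 hepatocyte genes, against 268 to 292 CPM in treated liver. Untreated blood replicate 3 stood apart, with 296661 CPM of the neutrophil genes. In the antibody table the anti-GCF libraries stood apart, with 24507 to 36408 CPM of the neutrophil genes against 193017 to 240461 CPM in the isotype libraries.

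Integrins are pairs of an alpha and a beta chain that bind ligands only after they are switched to an active shape. Neutrophils roll on endothelium through selectins and their ligands, of which PSGL-1, the product of Selplg, is the main one, then arrest and crawl through the beta-2 integrins. The beta-2 chain, encoded by Itgb2, pairs with CD11a (Itgal) to form LFA-1, with CD11b (Itgam) to form Mac-1 and with CD11c (Itgax), a pair typical of dendritic cells and macrophages, and ICAM-1 is a ligand of LFA-1 and Mac-1. The beta-1 chain (Itgb1) pairs with the alpha-4 chain (Itga4) to form VLA-4, a receptor of VCAM-1 and fibronectin on monocytes and lymphocytes. CD44 binds hyaluronan, a route by which neutrophils are held in liver sinusoids.

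The Itgam and Itgax genes are neighbours on the plus strand of chromosome 7 (mm10). In the blood and liver table the Itgam row runs from 128062640 to 128128160 and the Itgax row from 128129547 to 128150657, with 1386 bases between them. RefSeq promoter windows were available for 6 of the 9 genes. The 250 bases before the RefSeq start are shown for these neighbours, which were called in opposite directions with anti-GCF, and for Icam1, the ligand gene that was lowest in treated liver. Windows lie at chr7:128062390-128062639 (Itgam), chr7:128129300-128129549 (Itgax) and chr9:21015690-21015939 (Icam1), all on the plus strand of GRCm38.p6, and capitals mark motif matches on either strand.
Itgam: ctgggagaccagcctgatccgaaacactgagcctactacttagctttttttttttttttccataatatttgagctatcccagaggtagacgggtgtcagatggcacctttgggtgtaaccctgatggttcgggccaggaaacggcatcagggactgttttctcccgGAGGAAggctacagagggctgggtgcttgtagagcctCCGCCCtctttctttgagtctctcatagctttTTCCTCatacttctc
Itgax: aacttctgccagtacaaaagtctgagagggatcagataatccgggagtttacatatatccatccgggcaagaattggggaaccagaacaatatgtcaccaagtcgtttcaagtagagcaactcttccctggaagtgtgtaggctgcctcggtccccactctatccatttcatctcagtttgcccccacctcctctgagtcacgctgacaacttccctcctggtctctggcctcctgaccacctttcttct
Icam1: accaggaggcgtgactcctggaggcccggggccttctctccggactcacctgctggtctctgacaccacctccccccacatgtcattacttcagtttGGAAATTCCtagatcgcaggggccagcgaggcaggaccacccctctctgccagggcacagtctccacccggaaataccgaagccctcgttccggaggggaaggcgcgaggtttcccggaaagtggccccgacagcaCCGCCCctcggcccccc
The motifs searched on both strands were GAGGAA (a core of PU.1, a myeloid factor, found in 23.3% of 32851 RefSeq windows of this length), TGTGGT (RUNX, 14%), GGGCGG (Sp1, 32.7%), GGAAATTCC (one NF-kB site, 0.286%), TATAAA (12.4%) and TTGCGCAA (C/EBP, 0.164%). The Itgam window held the PU.1 letters at 84 bases before the start and, on the other strand, at 15 bases, and the Sp1 letters at 47. The Icam1 window held the NF-kB letters at 153 bases before the start and the Sp1 letters at 17. The Itgax window held none of the 6 motifs, which says only that these letters are not in this window. Among the other windows, Cd44 and Itgb1 also held GAGGAA or its reverse complement, and Itga4 held the RUNX and Sp1 letters.

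Per kilobase of exon, the mean level of the beta-2 chain was above that of the beta-1 chain in every group. The ratio of these means was smallest in anti-GCF libraries, at 335 ± 54.3 CPM per kb of Itgb2 and 113 ± 9.31 CPM per kb of Itgb1 (SD, n = 3). In treated liver Itgb2 stood at 769.5 ± 22.9 CPM per kb and Itgb1 at 23.3 ± 1.65 CPM per kb (SD, n = 2). In untreated blood, which was highest in Selplg, that gene stood at 2041 ± 130.4 CPM per kb, Itgb2 at 881 ± 139.9 and Cd44 at 692 ± 139 (SD, n = 3). Icam1 and Itgax were lowest in treated liver, at 3.92 ± 1.12 and 5.58 ± 0.705 CPM per kb. The other rows lie on chromosomes 10 (Itgb2, 77530252 to 77565708), 7 (Itgal, 127296260 to 127335138), 2 (Itga4, 79255426 to 79333123, and Cd44, 102811141 to 102901665), 8 (Itgb1, 128685654 to 128733200), 5 (Selplg, 113818536 to 113832644) and 9 (Icam1, 21015985 to 21028817). GENCODE M21 places Itgam's end at 128118491, short of its row, and gives the same ends as the rows for the other 8 genes. Levels are therefore tested within a table only. Itga4 overlaps Cerkl and Icam1 overlaps Gm47079 on the opposite strand, and Itgam shares exon bases with Gm49368 on its own strand, so a share of those reads is uncertain because the counting step is not described.

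Treated liver preparations carried more RNA of both Mac-1 chains than untreated liver preparations, a modest excess of Itgb1 and less Icam1. Itgam had 2955 and 3057 CPM in treated liver, against 685 and 583 CPM in untreated liver. Itgb2 had 2237 and 2334 CPM in treated liver, against 731 and 581 CPM in untreated liver. Every treated liver library was above every untreated one for these 2 genes. Itgam rose by 2.25 ± 0.24 (SE, adjusted p = 3.72e-05) on the log2 scale and Itgb2 by 1.80 ± 0.21 (SE, adjusted p = 6.78e-05), which is 4.74-fold and 3.48-fold. The edgeR quasi-likelihood test called 4 of the 9 genes, 3 higher and 1 lower, where it called 64.1% of all 16719 genes tested (27.8% higher and 36.3% lower). A called gene has an adjusted p under 0.05 over all genes tested, and ± after a log2 fold change is its SE. The median log2 fold change was 0.28 over the 9 genes and −0.29 over all genes, and this last value moved to −0.02 with upper-quartile scaling. Fewer cells of a type and less RNA per cell cannot be told apart in bulk samples.

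Of the other integrin chains, Itgb1 was called and Itgal, Itgax and Itga4 were not. Itgal, the LFA-1 chain, had 584 and 606 CPM in treated liver, against 596 and 383 CPM in untreated liver. Itgax had 22.0 and 26.4 CPM in treated liver, against 68.9 and 44.9 CPM in untreated liver. Itgal overlapped between the groups, while both treated libraries were below both untreated ones for Itgax. The differences were 0.28 ± 0.24 (SE, adjusted p = 0.315) for Itgal, with a 95% interval of −0.25 to 0.81, and −1.23 ± 0.56 (SE, adjusted p = 0.0775) for Itgax, and neither was called. Itgb1 had 93.2 and 84.3 CPM in treated liver, against 68.0 and 41.8 CPM in untreated liver, and rose by 0.69 ± 0.27 (SE, adjusted p = 0.0465). Its partner Itga4 had 97.2 and 101 CPM in treated liver, against 134 and 62.2 CPM in untreated liver, a difference of 0.02 ± 0.42 (SE, adjusted p = 0.971) with a 95% interval of −0.92 to 0.96. Both Itgb1 values in treated liver were above both untreated ones, whereas the Itga4 values of treated liver lay between those of untreated liver.

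The ligand and receptor genes of rolling did not pass between treated and untreated liver, and Icam1 fell. Selplg had 878 and 886 CPM in treated liver, against 1094 and 861 CPM in untreated liver. Cd44 had 1313 and 1439 CPM in treated liver, against 1230.3 and 862 CPM in untreated liver. Selplg differed by −0.15 ± 0.18 (SE, adjusted p = 0.492) and Cd44 by 0.39 ± 0.25 (SE, adjusted p = 0.183). Icam1 had 11.9 and 7.91 CPM in treated liver, against 34.0 and 25.0 CPM in untreated liver, and fell by 1.57 on the log2 scale (SE 0.49, adjusted p = 0.0182). All Icam1 levels were low, and the groups did not overlap, as for 6 of the 9 genes and 86.3% of all genes in this comparison of 2 with 2 libraries. The Icam1 call ended without treated liver replicate 2 (log2 −1.30, adjusted p = 0.127) and without untreated liver replicate 1 (−1.15, 0.142) or 2 (−1.59, 0.0554). The Itgb1 call ended without treated liver replicate 1 (0.62, 0.165), treated liver replicate 2 (0.77, 0.099) or untreated liver replicate 2 (0.57, 0.115). Without untreated liver replicate 1, Itgal (0.82, 0.0166) and Cd44 (0.86, 0.0284) were called higher.

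Cell type markers moved with these differences. All 17 hepatocyte genes were lower in treated liver and 18 of 20 neutrophil genes were higher (median log2 fold changes −6.92 and 2.51). Of 15 T and NK cell genes 11 were lower and 1 was higher, and of 10 B and plasma cell genes 6 were lower, with sums of 325 to 374 CPM in treated liver, against 1608 to 2075 CPM in untreated liver. Of 10 erythroid genes 8 were higher (median 6.47), with sums of 775 to 2346 CPM in treated liver, against 116 to 133 CPM in untreated liver. Alb, the albumin gene, averaged 27.4 ± 4.01 CPM in treated liver, against 5219.7 ± 507 CPM in untreated liver (SD, n = 2 each), and none of the hepatocyte genes was at 0. The Kupffer cell and macrophage genes summed to 387 to 420.0 CPM in treated liver, against 396 to 569.9 CPM in untreated liver, with the defining Clec4f, Vsig4 and Timd4 each under 1 CPM on average. Slc40a1 alone averaged 357 and 397 CPM in these groups. Of the 13 genes 3 were lower and 0 higher. C1qa, C1qb and C1qc averaged 0.621, 0.790 and 0.445 CPM in treated liver, against 5.92, 7.82 and 5.57 CPM in untreated liver. The part of these other cells in the differences was not tested.

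**Figure D1:**
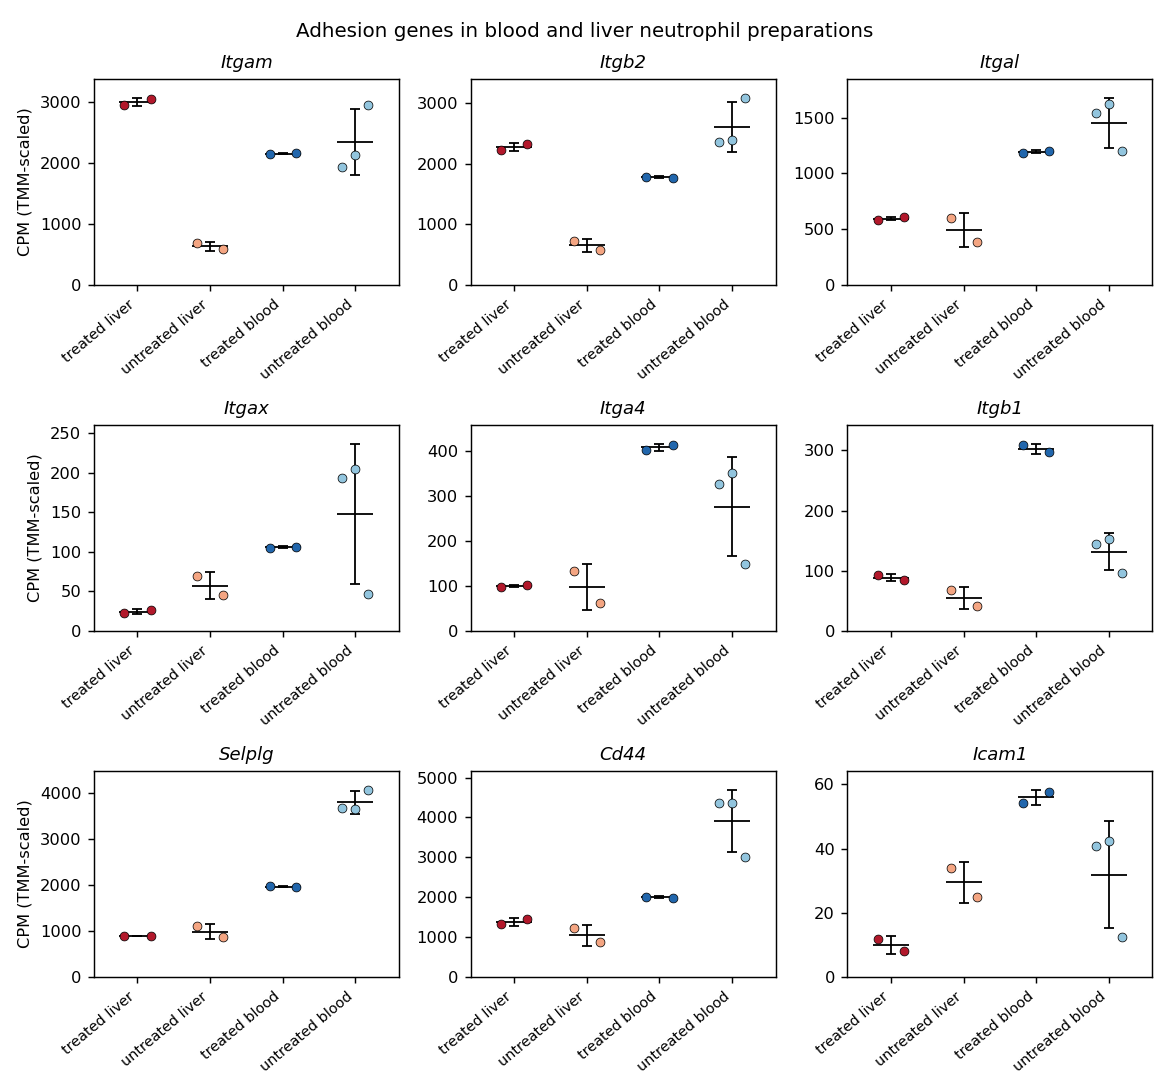
CPM after TMM scaling (y axes, linear from 0) of the 9 genes in the 9 libraries of the blood and liver table, by group on the x axis. Points are libraries, and lines and bars show the mean and SD. Itgam and Itgb2 in treated liver lie far above untreated liver, and untreated blood replicate 3, the rightmost point, lies apart from replicates 1 and 2 for Itgax, Itga4 and Icam1.

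In blood the therapy went with less RNA of PSGL-1 and CD44 and more of the beta-1 chain. Selplg had 1974 and 1945 CPM in treated blood, against 3656, 3636 and 4064 CPM in untreated blood. Cd44 had 2011 and 1975 CPM in treated blood, against 4369, 4363 and 3009 CPM in untreated blood. Every treated blood library was below every untreated one for both genes, and 6 of the 9 genes did not overlap between the groups, and neither did 61.1% of all genes. Selplg fell by 0.95 on the log2 scale (SE 0.17, adjusted p = 0.00356) and Cd44 fell by 0.97 on the log2 scale (SE 0.23, adjusted p = 0.0117). Itgb1 had 309 and 297 CPM in treated blood, against 145, 154 and 97.0 CPM in untreated blood, and rose by 1.20 ± 0.24 (SE, adjusted p = 0.00587). With Itgb2, which fell by 0.56 on the log2 scale (SE 0.19, adjusted p = 0.0471), 4 of the 9 genes were called, 1 higher and 3 lower, where 33.6% of all genes were called (17.4% higher and 16.2% lower).

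The Itgb2 values were 1789 and 1767 CPM in treated blood, against 2360.1, 2395 and 3096 CPM in untreated blood. Its partner Itgam had 2153 and 2164 CPM in treated blood, against 1935, 2139.8 and 2957 CPM in untreated blood. The Itgb2 groups did not overlap, and the Itgam values of treated blood lay within the range of untreated blood. Itgam differed by −0.12 ± 0.21 (SE, adjusted p = 0.684) with a 95% interval of −0.58 to 0.34. Itgal had 1187 and 1204 CPM in treated blood, against 1540.4, 1624 and 1201 CPM in untreated blood. Itgal, Itgax, Itga4 and Icam1 were not called either, with log2 fold changes of −0.28, −0.49, 0.57 and 0.81. The median log2 fold change was −0.28 over the 9 genes and 0.04 over all genes.

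Untreated blood replicate 3 differed from the other untreated blood libraries in several members. Itgax had 105 and 106 CPM in treated blood, against 193, 205 and 46.3 CPM in untreated blood. Itga4 had 402 and 413 CPM in treated blood, against 325, 351 and 149 CPM in untreated blood. Icam1 had 54.3 and 57.7 CPM in treated blood, against 40.7, 42.3 and 12.6 CPM in untreated blood. The last untreated value of each is replicate 3, which was the lowest blood library for all 3 genes. In scaled CPM replicate 3 was also the highest blood library for Itgam and Itgb2. Without replicate 3, Itgax was called lower in treated blood (log2 −0.92, adjusted p = 0.00462). The Itgb2 call ended without treated blood replicate 2 (−0.56, 0.222), treated blood replicate 3 (−0.54, 0.236) or untreated blood replicate 2 (−0.62, 0.0639), and it was kept in 3 of 14 alternatives. Without treated blood replicate 2 or 3, the calls of Selplg (−0.95 and −0.93, adjusted p = 0.0529 and 0.0575) and Cd44 (−0.98 and −0.95, adjusted p = 0.0934 and 0.104) ended as well.

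Markers of other blood cells moved with the therapy too. All 9 of 9 platelet genes were higher in treated blood. Of 15 T and NK cell genes 10 were higher and 1 was lower, and 5 of 20 neutrophil genes were lower with 1 higher. Platelet genes summed to 1675 to 1712 CPM in treated and 293 to 620.1 CPM in untreated blood, with none at 0. T and NK cell genes summed to 649 to 658 and 215 to 367 CPM in the same groups. Of 10 erythroid genes 9 were higher, with sums of 446 to 3313 CPM in treated and 33.1 to 234 CPM in untreated blood. Of 13 macrophage genes 8 were higher and 1 was lower. Their sum was lower, at 1057 to 1124 CPM in treated and 1269 to 1700 CPM in untreated blood, of which Slc40a1 alone averaged 862 and 1380 CPM. The platelet integrin chain Itga2b stood at 417 CPM on average in treated and 111 CPM in untreated blood. Itgb1 and Itga4 are also made by lymphocytes and platelets use Itgb1, and the part of these cells in the Itgb1 difference was not tested.

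The size of the therapy effect differed between liver and blood for 5 of the 9 genes, where this interaction called 54.7% of all genes (23.3% higher and 31.4% lower). The share of members called thus lay near that of all genes. The effect in liver minus that in blood was 2.37 ± 0.31 (SE, adjusted p = 0.000268) for Itgam and 2.36 ± 0.28 (SE, adjusted p = 0.000162) for Itgb2, on the log2 scale. Cd44 differed by 1.37 ± 0.34 (SE, adjusted p = 0.00699), Selplg by 0.80 ± 0.25 (SE, adjusted p = 0.0208) and Icam1 by −2.38 ± 0.65 (SE, adjusted p = 0.0116). Icam1 was lower in treated than in untreated liver, but its 54.3 and 57.7 CPM in treated blood were above the 40.7, 42.3 and 12.6 CPM of untreated blood, a difference that was not called (0.81 ± 0.43, adjusted p = 0.171). Both effects are positive for Itgb1, and their difference was −0.51 ± 0.36 (SE, adjusted p = 0.263). The Selplg interaction ended without treated liver replicate 1 (0.80, adjusted p = 0.0655) or 2 (0.80, 0.0742) and without treated blood replicate 2 (0.82, 0.0864) or 3 (0.79, 0.0885). The Icam1 interaction ended without treated liver replicate 2 (−2.11, 0.0592) or untreated liver replicate 1 (−2.02, 0.0593), and Itgal was called higher without untreated liver replicate 1 (1.05, 0.0164) or untreated blood replicate 3 (0.69, 0.0465).

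Among treated mice, liver preparations were lower than blood preparations in 6 of the 9 genes, and the Mac-1 chains and Cd44 were not called. The 6 were the VLA-4 chains, Itgax, Itgal, Selplg and Icam1, where 21.3% of all genes were called (9.71% higher and 11.6% lower). Itga4 had 97.2 and 101 CPM in treated liver, against 402 and 413 CPM in treated blood, and Itgb1 had 93.2 and 84.3 CPM against 309 and 297 CPM. Itga4 was 4.11-fold and Itgb1 3.41-fold lower, with log2 fold changes of −2.04 ± 0.43 (SE, adjusted p = 0.00985) and −1.77 ± 0.28 (SE, adjusted p = 0.00225). None of the 9 genes overlapped between these groups of 2 libraries, and neither did 76% of all genes. Itgax, with 22.0 and 26.4 CPM in treated liver against 105 and 106 CPM in treated blood, fell by 2.12 on the log2 scale (SE 0.57, adjusted p = 0.0274). Icam1 was 5.64-fold lower (adjusted p = 0.0077), Selplg fell by 1.15 on the log2 scale (SE 0.18, adjusted p = 0.00255) and Itgal fell by 1.01 on the log2 scale (SE 0.24, adjusted p = 0.0161). Itgam differed by 0.48 ± 0.23 (SE, adjusted p = 0.166), Itgb2 by 0.36 ± 0.20 (SE, adjusted p = 0.245) and Cd44 by −0.53 ± 0.25 (SE, adjusted p = 0.156), with 95% intervals of −0.03 to 0.98, −0.10 to 0.82 and −1.09 to 0.02. In a fit of these 4 libraries alone, those 3 were called too, Itgam (0.47) and Itgb2 (0.35) higher and Cd44 (−0.54) lower. That fit called more genes in general, 3995 higher and 4193 lower of 15557 tested, against 1624 and 1944 of 16719 in the main fit.

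The calls between liver and blood of treated mice rest on few libraries. Leaving out any 1 of the 4 ended those of Itgal (log2 −0.98 and −1.03 without treated liver replicates 1 and 2, −1.02 and −0.99 without treated blood replicates 2 and 3) and Itgax (−2.00, −2.25, −2.14 and −2.11 in the same order). The Itga4 call ended without treated liver replicate 1 (−2.00, adjusted p = 0.0801) or 2 (−2.06, 0.0792) and that of Icam1 without treated liver replicate 2 (−2.22, 0.0842). Beside them, 9 of 9 platelet, 13 of 15 T and NK cell, 9 of 10 B and plasma cell and 8 of 13 macrophage genes were lower in treated liver. Higher there were 14 of 17 hepatocyte genes and 1 of the T and NK cell genes. The macrophage genes summed to 387 to 420.0 CPM in treated liver, against 1057 to 1124 CPM in treated blood. Platelet genes summed to 4.23 to 4.77 CPM in treated liver, with Gp6 at 0, against 1675 to 1712 CPM in treated blood, and the part of these cells in the differences was not tested.

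Without therapy, liver preparations were lower than blood in 8 of the 9 genes, where 64.3% of all genes were called (35.6% higher and 28.7% lower). The 8 log2 fold changes ran from −2.00 for Itgb2 to −1.27 for Itgb1, with a median over the 9 genes of −1.57 against 0.10 over all genes. Itgb2 had 731 and 581 CPM in untreated liver, against 2360.1, 2395 and 3096 CPM in untreated blood (log2 −2.00 ± 0.20, adjusted p = 2.39e-05). Icam1 was not called, with 34.0 and 25.0 CPM in untreated liver against 40.7, 42.3 and 12.6 CPM in untreated blood (−0.11 ± 0.43, adjusted p = 0.835). Groups did not overlap for 7 of the 9 genes, Itgax and Icam1 aside, and for 73.4% of all genes. The neutrophil genes moved alongside, 18 of 20 lower (median −2.23), as did 9 of 9 platelet genes (median −7.48), while 17 of 17 hepatocyte genes were higher (median 8.59). The part of these cells in the differences was not tested. The Itgax call (−1.38 ± 0.52, adjusted p = 0.0414) ended without untreated liver replicate 1 (−1.85) or 2 (−1.24) and without untreated blood replicate 1 (−1.15) or 2 (−1.08), and that of Itga4 without untreated liver replicate 2 (−1.17, adjusted p = 0.0559).

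**Figure D2:**
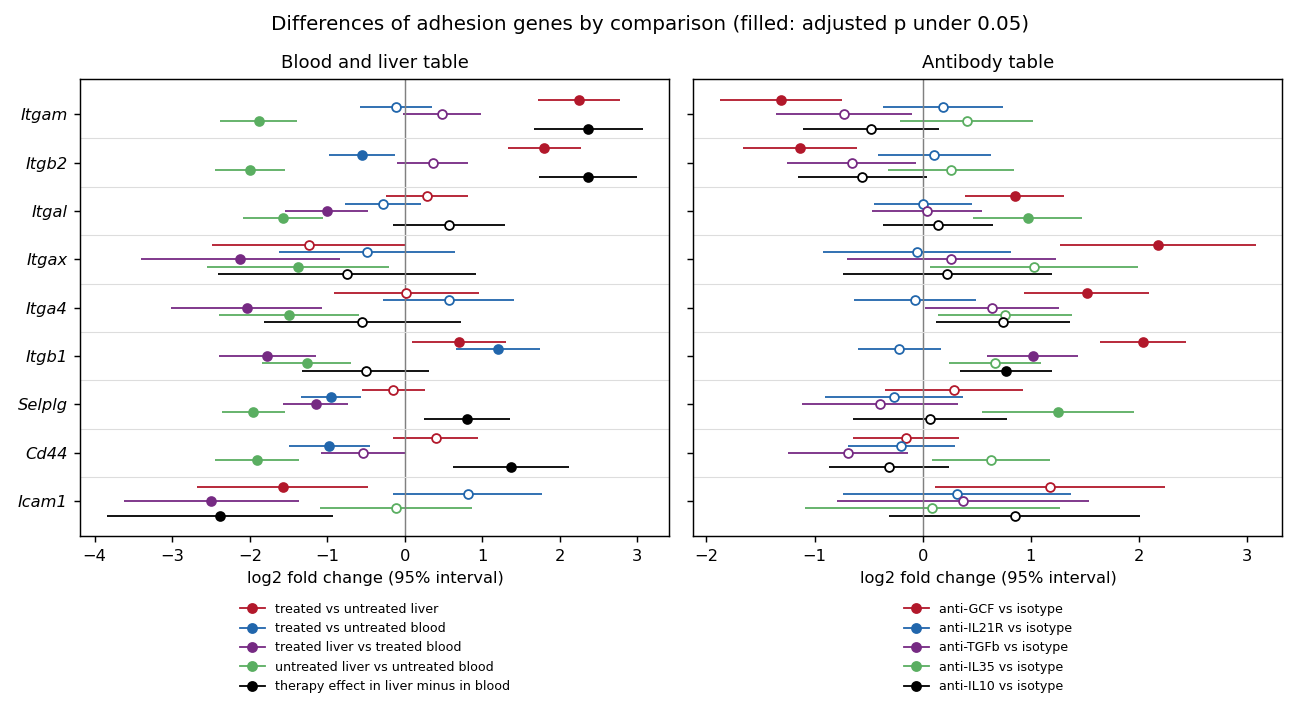
Log2 fold changes (x axis) of the 9 genes (y axis) in the 5 comparisons of each table, with 95% intervals as lines. Filled points have an adjusted p under 0.05 over all genes tested. Itgam and Itgb2 have the same sign in every comparison and lie at 2.25 and 1.80 in treated against untreated liver and at −1.31 and −1.14 in anti-GCF against isotype.

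The rest of the adhesion machinery was followed through 4 gene lists. Of 30 genes of integrin activation and signalling, such as talin, kindlin-3 and the kinases downstream, 26 were higher and 1 was lower in treated than in untreated liver (median log2 fold change 1.23, against −0.29 over all genes). Vcl, the focal adhesion protein vinculin, averaged 406 CPM in treated liver, against 44.6 CPM in untreated liver, a rise of 3.19 ± 0.23 (adjusted p = 4.38e-06). Syk, the kinase that relays integrin signals, rose by 2.30 ± 0.24 (adjusted p = 3.52e-05) and Vav3, a guanine nucleotide exchange factor, by 2.99 ± 0.21 (adjusted p = 4.54e-06). Among 12 genes that build or cut selectin ligands, 8 were higher and 1 was lower (median 1.23). Fut7, the fucosyltransferase that makes PSGL-1 able to bind selectins, rose by 2.15 ± 0.22 (adjusted p = 3.4e-05), at 21.3 CPM in treated liver, against 4.79 CPM in untreated liver, while Selplg itself was not called. The neutrophil genes rose in the same libraries, and their part in these lists was not tested.

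Other integrin chains and adhesion receptors gave mixed results. Of 16 other integrin chains tested, 3 were higher and 3 lower in treated than in untreated liver, among them Itga6, a laminin receptor chain (3.13 ± 0.27, adjusted p = 1.44e-05), and Itgb5, a vitronectin receptor chain (−1.95 ± 0.26, adjusted p = 0.000139). Of 15 selectins and other adhesion receptors tested, 7 were higher and 5 lower.

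In blood, 10 of the 30 activation genes were lower and 1 was higher under therapy, with Rac2, a small GTPase of neutrophil movement, at 2034 CPM in treated and 4618 CPM in untreated blood (−1.18 ± 0.20, adjusted p = 0.00292). Of 16 other integrin chains 9 were higher and 0 lower, among them Itga6 (1.65 ± 0.22, adjusted p = 0.000989) and the platelet chains Itga2b (1.90 ± 0.29, adjusted p = 0.00167) and Itgb3 (1.07 ± 0.19, adjusted p = 0.00316). For the selectin-ligand genes the counts were 2 higher and 4 lower of 12, and for the other adhesion receptors 4 and 1 of 15. Between treated liver and treated blood, 3 activation genes were higher and 1 lower, and 9 of 16 other integrin chains were lower with 0 higher.

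Preparations from anti-GCF mice held less Itgam and Itgb2 and more Itgal, Itgax, Itga4 and Itgb1 than isotype preparations. The test called these 6 of the 9 genes, 4 higher and 2 lower, where 57.8% of all 16812 genes tested were called (31.6% higher and 26.3% lower), so the share of members called lay near that of all genes. Itgam had 243, 416 and 243 CPM in anti-GCF libraries, against 727, 857 and 653 CPM in isotype libraries. Itgb2 had 928, 1179 and 878 CPM in anti-GCF libraries, against 2006, 2537 and 2012 CPM in isotype libraries. All 3 anti-GCF libraries were below all 3 isotype libraries for both, and 7 of the 9 genes did not overlap between the groups, and neither did 66.8% of all genes. Itgam fell by 1.31 on the log2 scale (SE 0.26, adjusted p = 0.000798) and Itgb2 fell by 1.14 on the log2 scale (SE 0.25, adjusted p = 0.00146). The median log2 fold change was 0.85 over the 9 genes and 0.11 over all genes.

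The genes that rose include both VLA-4 chains and CD11c. Itgb1 had 396, 467 and 426 CPM in anti-GCF libraries, against 93.6, 115 and 104 CPM in isotype libraries. Itgax had 309, 331 and 309 CPM in anti-GCF libraries, against 67.9, 72.7 and 69.8 CPM in isotype libraries. Neither gene had a library of one group near the other, and they rose by 2.04 ± 0.19 (SE, adjusted p = 2.92e-06) and 2.17 ± 0.42 (SE, adjusted p = 0.000793), or 4.11-fold and 4.51-fold. Itga4 had 288, 241 and 205 CPM in anti-GCF libraries, against 78.4, 77.4 and 100.4 CPM in isotype libraries, and rose by 1.52 ± 0.27 (SE, adjusted p = 0.000314). Itgal, whose beta chain fell in the same libraries, had 1075, 923 and 1009 CPM in anti-GCF libraries, against 486, 650.0 and 529 CPM in isotype libraries, and rose by 0.85 ± 0.21 (SE, adjusted p = 0.00376). All 6 calls held with each library left out in turn.

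Icam1 stood higher in each anti-GCF library, at 74.9, 81.2 and 103 CPM against 37.6, 35.5 and 41.8 CPM in isotype libraries, but did not pass (1.17 ± 0.49, adjusted p = 0.0563). It passed in a fit of these 6 libraries alone (1.08) and with DESeq2 (1.09). Selplg had 812, 757 and 828 CPM in anti-GCF libraries, against 423, 845 and 696 CPM in isotype libraries, and Cd44 had 1497, 1581 and 1654 CPM against 1338, 2105 and 1837 CPM. These 2 genes overlapped between the groups, with log2 fold changes of 0.29 ± 0.30 (SE, adjusted p = 0.421) and −0.16 ± 0.23 (SE, adjusted p = 0.572) and 95% intervals of −0.35 to 0.92 and −0.65 to 0.33.

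Macrophage and dendritic cell genes moved with the anti-GCF differences. All 13 of 13 Kupffer cell and macrophage genes and 10 of 12 monocyte and dendritic cell genes were higher, and 18 of 20 neutrophil genes were lower. The macrophage genes summed to 5902 to 11390.4 CPM in anti-GCF libraries and 278 to 659 CPM in isotype libraries, and the monocyte and dendritic cell genes to 4096 to 5001 and 593 to 676 CPM. Clec4f, the defining gene of Kupffer cells, stood at 1003 ± 437 CPM in anti-GCF and 19.7 ± 15.6 CPM in isotype libraries (SD, n = 3 each), and none of the macrophage genes was at 0. Itgax, Itga4 and Itgb1 are also made by macrophages and dendritic cells, and the part of those cells in the differences was not tested.

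The other antibodies gave fewer calls, and all share the 3 isotype libraries with the anti-GCF comparison. Anti-TGFb libraries were higher in Itgb1 alone of the 9 genes, where 27.6% of all genes were called (17.5% higher and 10% lower). Itgb1 had 208 and 215 CPM in anti-TGFb libraries, against 93.6, 115 and 104 CPM in isotype libraries, and rose by 1.02 ± 0.20 (SE, adjusted p = 0.00257). Itgam had 469 and 431 CPM in anti-TGFb libraries, against 727, 857 and 653 CPM in isotype libraries, and Itgb2 had 1379 and 1396 CPM against 2006, 2537 and 2012 CPM. The TMM factors were 1.25 and 1.22 in anti-TGFb libraries, against 0.943, 0.833 and 0.888 in isotype libraries. In these scaled CPM every anti-TGFb library was below every isotype library for both Mac-1 chains, but neither passed (−0.73 ± 0.29, adjusted p = 0.0798 and −0.66 ± 0.28, adjusted p = 0.0937). Both were called lower in a fit of these 5 libraries alone (−0.68, adjusted p = 0.0243 for Itgam and −0.60, adjusted p = 0.0331 for Itgb2). Groups did not overlap for 7 of the 9 genes and 59.2% of all genes. Cd44 had 1064 and 1118 CPM in anti-TGFb libraries, against 1338, 2105 and 1837 CPM in isotype libraries, and missed the threshold (−0.69 ± 0.26, adjusted p = 0.0626). It was called lower without isotype replicate 1 (−0.85, adjusted p = 0.031), with upper-quartile scaling and with DESeq2, which also called Itgam (−0.76, 0.0475).

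Anti-IL10 libraries showed the same single call, where 17.6% of all genes were called (10.6% higher and 6.98% lower). Itgb1 had 186 and 170.0 CPM in anti-IL10 libraries, against 93.6, 115 and 104 CPM in isotype libraries, and rose by 0.77 ± 0.20 (SE, adjusted p = 0.0199). Groups did not overlap for 4 of the 9 genes and 48.7% of all genes. Itgam had 369 and 702 CPM in anti-IL10 replicates 1 and 2, against 727, 857 and 653 CPM in isotype libraries. Itgb2 had 1046 and 1923 CPM in the same replicates, against 2006, 2537 and 2012 CPM in isotype libraries. Replicate 1 was low in both Mac-1 chains and held 60098 CPM of the neutrophil genes, against 138486 CPM in replicate 2. Without replicate 2, Itgam (adjusted p = 0.0497) and Itgb2 (log2 −1.04, adjusted p = 0.0322) were called lower. The Itgb1 call ended without anti-IL10 replicate 1 (0.70, 0.19) or isotype replicate 3 (0.77, 0.0511).

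T and NK cell genes were higher in both sets, 14 of 15 with anti-TGFb and 13 of 15 with anti-IL10. They summed to 1049 to 1105 CPM in anti-TGFb and 888 to 889.7 CPM in anti-IL10 libraries, against 303 to 436 CPM in isotype libraries. Cd3e, a defining chain of the T cell receptor complex, averaged 53.6 ± 2.56 and 39.6 ± 2.86 CPM in these groups (SD, n = 2 each), against 7.30 ± 3.03 CPM (n = 3). Cd3d, another chain of that complex, went the other way, at 162 ± 17.1 and 90.0 ± 33.2 CPM against 244 ± 48.6 CPM in isotype libraries. The mean isotype sum of the list was 363 CPM, and none of the 15 genes was at 0. Of 20 neutrophil genes 6 were lower with anti-TGFb (median −0.86) and 7 with anti-IL10 (median −0.88). They summed to 114259 to 120561 CPM in anti-TGFb and 60098 to 138486 CPM in anti-IL10 libraries, against 193017 to 240461 CPM in isotype libraries. Of 17 hepatocyte genes 11 were higher with anti-TGFb and 5 with anti-IL10, and of 12 monocyte and dendritic cell genes 7 and 5 in the same order. Beta-1 integrin is made by many cell types, T and NK cells among them, and the part of other cells in the Itgb1 and Mac-1 chain differences was not tested.

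Anti-IL35 libraries were called higher in Itgal and Selplg, where 9.33% of all genes were called (4.81% higher and 4.51% lower). These were 809 genes higher and 759 lower, and with upper-quartile scaling 475 higher and 902 lower. Selplg had 904 and 2213 CPM in anti-IL35 libraries, against 423, 845 and 696 CPM in isotype libraries, and rose by 1.25 ± 0.33 (SE, adjusted p = 0.0317). Itgal had 765 and 1410.1 CPM in anti-IL35 libraries, against 486, 650.0 and 529 CPM in isotype libraries, and rose by 0.97 ± 0.23 (SE, adjusted p = 0.0232). Both anti-IL35 libraries were above every isotype library, replicate 2 by far the most, and 4 of the 9 genes and 33.6% of all genes did not overlap. Without replicate 2, Selplg (0.46, adjusted p = 0.463) and Itgal (0.46, 0.321) lost their calls, and so they did without isotype replicate 1 (1.02 and 0.88) or 3 (1.30 and 0.94).

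Replicates 1 and 2 of anti-IL35 went opposite ways for Icam1, with 10.3 and 71.2 CPM against 37.6, 35.5 and 41.8 CPM in isotype libraries. The mean difference was 0.09 ± 0.54 (SE, adjusted p = 0.932), but without replicate 2 Icam1 was called lower (−1.89, adjusted p = 0.0169) and without replicate 1 called higher (0.90, 0.0318). Itgax showed a like split, at 55.5 and 231 CPM in anti-IL35 libraries against 67.9, 72.7 and 69.8 CPM in isotype libraries. Without replicate 1, which left 1 anti-IL35 library, log2 fold changes were 1.72 for Itgax, 1.26 for Itga4, 1.01 for Itgb1 and 0.97 for Cd44. Macrophage genes summed to 335 CPM in replicate 1 and 2768 CPM in replicate 2, against 278 to 659 CPM in isotype libraries, and the part of these cells was not tested.

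With anti-IL21R no member was called by edgeR, where 2.23% of all genes were called (1.08% higher and 1.15% lower). These were 181 genes higher and 194 lower, and with upper-quartile scaling 109 higher and 218 lower. At an unadjusted p under 0.05 the count was also 0, and DESeq2 called 0. Itgam had 946, 720.2 and 881 CPM in anti-IL21R libraries, against 727, 857 and 653 CPM in isotype libraries, and Itgb1 had 96.1, 82.3 and 91.3 CPM against 93.6, 115 and 104 CPM. The groups overlapped for all 9 genes, while 25.5% of all genes did not overlap. Selplg had 666, 461 and 509.9 CPM in anti-IL21R libraries, against 423, 845 and 696 CPM in isotype libraries, and Cd44 had 1882, 1314 and 1415 CPM against 1338, 2105 and 1837 CPM. The 95% intervals were −0.37 to 0.74 for Itgam, −0.41 to 0.63 for Itgb2, −0.60 to 0.17 for Itgb1 and −0.73 to 1.37 for Icam1, on the log2 scale.

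**Figure D3:**
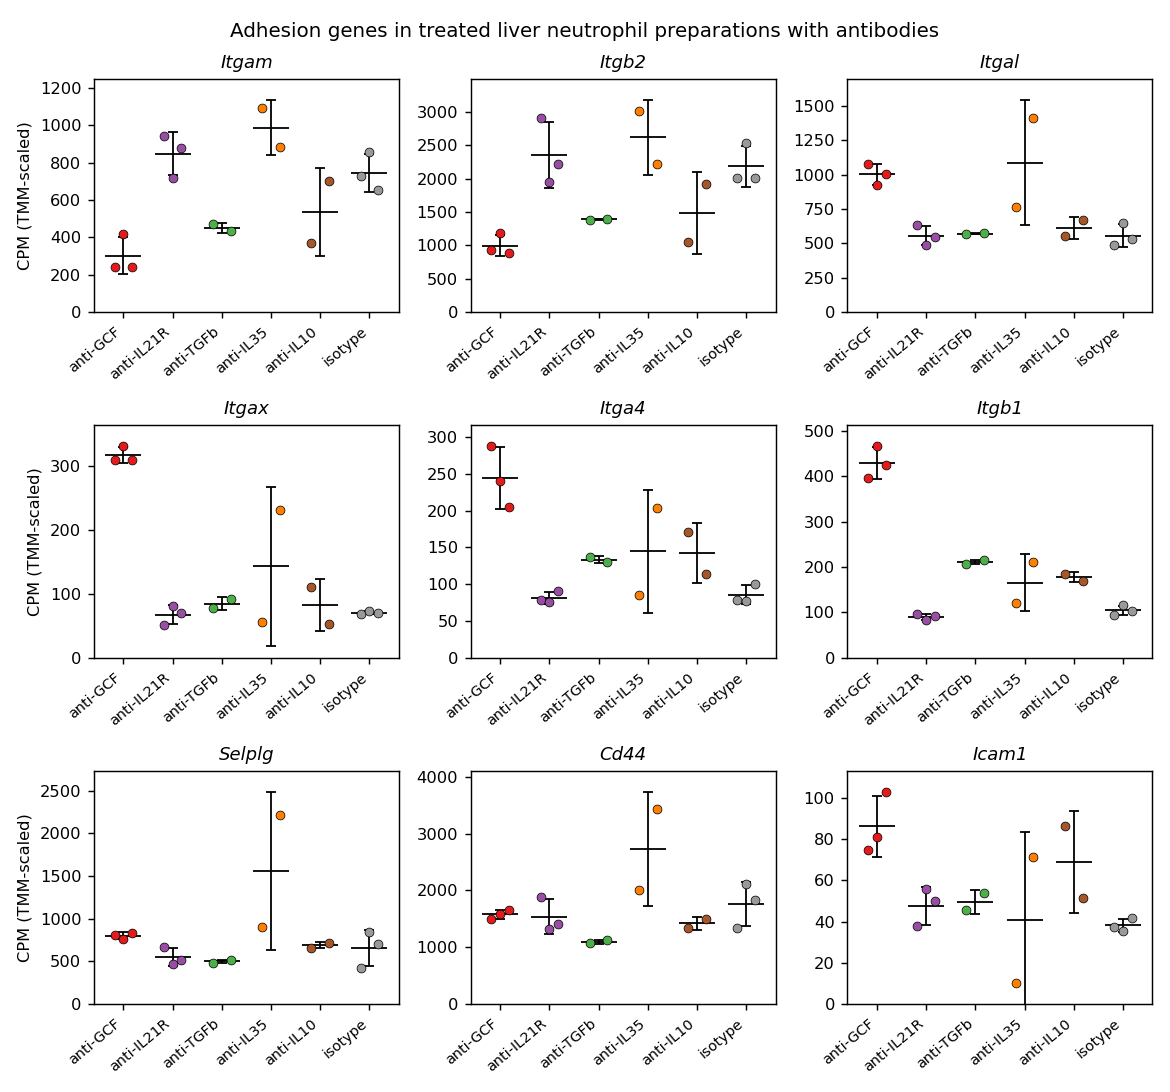
CPM after TMM scaling (y axes, linear from 0) of the 9 genes in the 15 libraries of the antibody table, by antibody on the x axis. Points are libraries, and lines and bars show the mean and SD, with the lower bar of Icam1 in anti-IL35 cut at 0. The anti-GCF points lie below the isotype points for Itgam and Itgb2 and above them for Itgal, Itgax, Itga4 and Itgb1.

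Among the other adhesion genes, anti-GCF libraries were higher in 10 and lower in 1 of 17 other integrin chains tested. Itgb5 averaged 139 CPM in anti-GCF and 8.98 CPM in isotype libraries (3.94 ± 0.64, adjusted p = 0.000278), Itgav, its alpha partner, rose by 1.79 ± 0.18 (adjusted p = 4.55e-06), and Itgae, an E-cadherin receptor chain of dendritic cells and lymphocytes, by 3.08 ± 0.34 (adjusted p = 1.1e-05). Of 29 activation genes 15 were lower and 1 was higher, with Pxn, the focal adhesion adaptor paxillin, at −1.09 ± 0.17 (adjusted p = 0.000139). Adam8, a protease that cuts adhesion molecules, averaged 325 CPM in anti-GCF and 2040.2 CPM in isotype libraries (−2.65 ± 0.38, adjusted p = 6.31e-05). Vcam1, a ligand of VLA-4 that Kupffer cells and endothelium carry, averaged 225 CPM in anti-GCF and 36.0 CPM in isotype libraries (2.64 ± 0.37, adjusted p = 7.81e-05).

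Other antibodies touched these lists less widely. With anti-TGFb, 5 other integrin chains were higher and 1 was lower of 17, and 10 activation genes were lower and 1 was higher of 29. The higher activation gene was Skap1, an adaptor of T cells, at 2.48 ± 0.35 (adjusted p = 0.000374), and with anti-IL10 Skap1 was higher as well (2.12 ± 0.35, adjusted p = 0.00248). Itgb7, the partner of Itga4 in a gut-homing lymphocyte integrin, averaged 212 CPM in anti-TGFb and 217 CPM in anti-IL10 libraries, against 73.0 CPM in isotype libraries (1.53 ± 0.34, adjusted p = 0.00579 and 1.57 ± 0.34, adjusted p = 0.0101). Anti-IL35 libraries were higher in 5 and lower in 1 of 29 activation genes, and in Fut7 (0.92 ± 0.21, adjusted p = 0.0197) and St3gal4, a sialyltransferase of selectin ligands (1.15 ± 0.29, adjusted p = 0.029). Anti-IL21R had 1 activation gene higher, Cyth1 (0.78 ± 0.14, adjusted p = 0.0267), and no call in the other 3 lists.

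Ratios within a library do not depend on scaling between libraries, and they separate the alpha chains. Itgal per Itgb2 was 0.261 and 0.26 in treated liver, against 0.816 and 0.659 in untreated liver, and 0.664 and 0.682 in treated blood, against 0.653, 0.678 and 0.388 in untreated blood. Itgax per Itgb2 was 0.00984 and 0.0113 in treated liver, against 0.0942 and 0.0773 in untreated liver, and 0.0584 and 0.0601 in treated blood, against 0.0819, 0.0856 and 0.0149 in untreated blood. Treated liver was lowest in both ratios, and for Itgax the nearest other library was untreated blood replicate 3. Itgam per Itgb2 varied less, at 1.32 and 1.31 in treated liver, against 0.937 and 1.00 in untreated liver, and at 1.20 and 1.22 in treated blood, against 0.82, 0.894 and 0.955 in untreated blood. In both tissues the ratio of Mac-1's chains was above its untreated range in every treated library.

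Across the 4 groups of the blood and liver table, the order of the mean levels differed between members. Selplg averaged 882 ± 6.05 CPM in treated liver, 977 ± 164 in untreated liver, 1959.7 ± 20.4 in treated blood and 3785 ± 242 in untreated blood (SD), so that both blood groups stood above both liver groups and the liver groups were not called apart. Itgb1 averaged 88.7 ± 6.31, 54.9 ± 18.5, 303 ± 8.39 and 132 ± 30.5 CPM in the same groups, highest in treated blood. Itgam averaged 3006 ± 72.2, 634 ± 72.2, 2158 ± 8.33 and 2344 ± 541 CPM, where untreated liver was lowest and treated blood was called neither against untreated blood nor against treated liver. Icam1 was lowest in treated liver, at 9.93 ± 2.85 CPM, and highest in treated blood, at 56.0 ± 2.42 CPM.

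In the antibody table Itgb1 per Itgb2 was 0.427, 0.396 and 0.485 in anti-GCF, 0.151 and 0.154 in anti-TGFb and 0.178 and 0.0884 in anti-IL10 libraries, against 0.0466, 0.0455 and 0.0518 in isotype libraries. These 7 antibody libraries lay above all isotype libraries. Anti-IL21R libraries, at 0.0331, 0.0423 and 0.0411, lay below them, and anti-IL35 libraries lay on either side, at 0.04 and 0.0946. Itgam per Itgb2 was 0.262, 0.353 and 0.276 in anti-GCF libraries, against 0.362, 0.338 and 0.325 in isotype libraries, and the groups overlapped. Itgax per Itgb2 was 0.333, 0.281 and 0.353 in anti-GCF libraries, against 0.0338, 0.0287 and 0.0347 in isotype libraries, with no overlap.

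**Figure D4:**
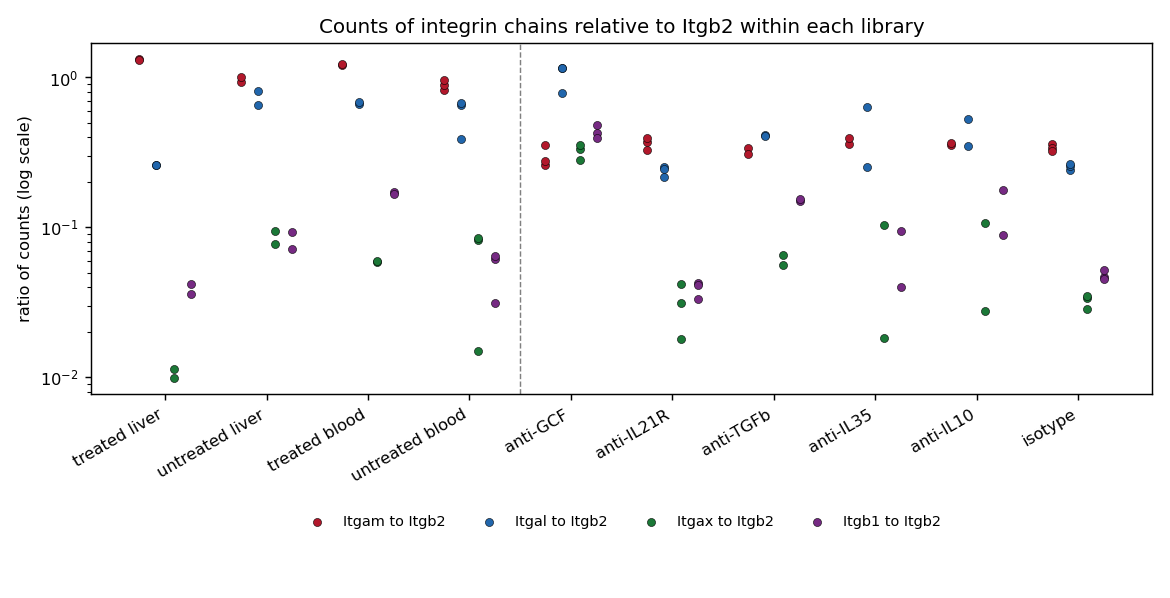
Ratios of counts to Itgb2 within each library (y axis, log scale) for Itgam, Itgal, Itgax and Itgb1 in the 10 groups on the x axis. Each point is a library, and the dashed line separates the tables, which were scaled separately. Itgax per Itgb2 is lowest in treated liver among the blood and liver groups and highest in anti-GCF among the antibody groups, where Itgal per Itgb2 reaches 1.16.

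Levels of some members followed each other closely across libraries. Over the 9 libraries of one table and the 15 of the other, Pearson's r of log2 CPM was 0.96 and 0.98 for Itgam with Itgb2, 0.92 and 0.93 for Itga4 with Itgb1, and 0.94 and 0.90 for Selplg with Cd44. These were not separate pairs, as Itgal with Selplg had 0.92 and 0.85 and Itga4 with Itgax 0.83 and 0.90. Itgal with Cd44 had 0.94 and 0.63. The chromosome 7 neighbours Itgam and Itgax had an r of −0.09 and −0.71. These are descriptions over libraries that share groups, cell makeup and scaling. Among 6080 genes with at least 10 CPM on average in both tables, those most like each member by the mean of the r values of both tables were Atp2c1 for Itgam (0.979), Mmp9 for Itgb2 (0.982), Slc44a2 for Itgal (0.971), Arf2 for Itgax (0.953) and Naaa for Itga4 (0.952). For Itgb1 it was Elmo2 (0.969), for Selplg Tgfbi (0.976), for Cd44 Tmem43 (0.974) and for Icam1 AW011738 (0.896). Icam1 had the least close match of the 9, with Csf1 at 0.887 and Itga5, another integrin chain, at 0.870 next.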

How the data were processed

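Per the labels, the RNeasy Mini kit gave the RNA and the TruSeq Stranded mRNA kit the libraries. Partek, STAR 2.5.3a, Bowtie2 2.2.5, DESeq2 and the build mm10 appear in the submitters' processing notes, without the step of each, and the counting tool is not given in the sources used here. The authors deposited raw counts per gene for 15 antibody libraries and expected counts for 9 blood and liver libraries, where 44.4% of values were not whole. These estimated counts were rounded. Each table was fitted on its own.

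The filterByExpr step left 16719 and 16812 genes, which were scaled by TMM and tested with the edgeR 4.0.16 quasi-likelihood F test (R 4.3.3, limma 3.58.1), on a design of group alone over all libraries of a table. P-values were Benjamini-Hochberg adjusted over all genes tested, with a threshold of 0.05. The standard error is the size of the log2 fold change divided by the square root of F, and 95% intervals use the fit's degrees of freedom. CPM are TMM-scaled, and CPM per kb use the exon union of GENCODE M21. Ratios and correlations were not tested. Sequences are from RefSeq (GRCm38.p6).

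All 9 genes are named in every comparison. From each pathway list, the genes named were selected from the 4 with the smallest adjusted p, and for likeness from the 3 closest. The members, gene lists and tests were chosen with earlier results of these data known. Alternatives were RLE and upper-quartile scaling, DESeq2 1.42.0, no filter, a filter of 5 CPM in 2 libraries, replicate blocks, fits of only the groups compared and leaving out each library. Fits without untreated liver and without anti-GCF libraries were added after seeing the data. The fit was tested on simulated data.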

Additional observations from a re-analysis of the deposited data

Results flagged for a closer look

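The therapy effect differed between liver and blood for 5 of the 9 genes, by a test of the difference itself (the interaction term of edgeR). The effect in liver minus that in blood was 2.37 for Itgam, 2.36 for Itgb2, 0.80 for Selplg, 1.37 for Cd44 and −2.38 for Icam1, on the log2 scale. Of all genes tested, 54.7% passed the same test, so the share of members called lay near that of all genes. In liver the effect was 2.25 for Itgam and −1.57 for Icam1, against −0.12 and 0.81 in blood. Untreated liver libraries held 15450.2 to 21084 CPM of hepatocyte genes, against 358 to 549 CPM in untreated blood, and the part of this in the interaction was not tested. No group of the members had 4 or more libraries, so single libraries far from their group were not looked for by a test.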

How the results depend on the processing

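Of 1251 values of single members under an alternative, 1157 kept their side of the threshold, though uncalled ones could change sign, 62 lost a call, 31 gained one and 1 changed sign with a call. That one was Icam1 with anti-IL35, at −1.89 without anti-IL35 replicate 2 and 0.90 without replicate 1. The count of members called with anti-TGFb was 1 and became 2 with upper-quartile scaling, 3 with DESeq2 and 4 in a fit of only the groups compared. With anti-IL35 it was 2 and became 0 in a fit of only the groups compared, 0 in the fit without the anti-GCF libraries, and 0 with a replicate block by title number or by library-name number. The counts of the other comparisons stayed within 1.5 times under these alternatives. Replicate numbers were shared by the groups, but samples with the same number did not deviate together in every pair (r from −0.244 to 0.287), so the replicate block is not taken as a pairing. Apart from anti-IL35, the block moved no count by over 1.5 times. Icam1 lost its call in liver with the block by library-name number (−1.02, adjusted p = 0.0668) and was called higher in blood with the block by title number (1.29, adjusted p = 0.0233) and by library-name number (1.25, adjusted p = 0.0326).

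Leaving out 1 library at a time gave counts of 2 to 5 for treated against untreated liver, 1 to 5 for blood, 2 to 4 for treated liver against treated blood, 6 to 8 for untreated liver against untreated blood and 3 to 6 for the interaction. It gave 6 to 6 for anti-GCF, 0 to 0 for anti-IL21R, 1 to 2 for anti-TGFb, 0 to 7 for anti-IL35 and 0 to 3 for anti-IL10. Where this left a group with 1 library, the spread was taken from the other groups. The interaction uses all groups of its table, so no fit of fewer groups was made for it. Groups of 2 or 3 libraries limit the precision, and the lowest group mean of a member was Icam1 in treated liver, at 9.93 CPM.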

Other observations

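Itgam stood at 3006 ± 72.2 CPM (SD, n = 2) in treated liver of one table and at 746 ± 103 CPM (n = 3) in treated liver with isotype antibody of the other, while Itgb2 stood at 2286 ± 67.9 and 2185 ± 305 CPM. Itgam per Itgb2 was 1.32 and 1.31 in the first and 0.362, 0.338 and 0.325 in the second. Itgal per Itgb2 was 0.261 and 0.26 in the first and 0.242, 0.256 and 0.263 in the second. Whether the tables counted Itgam over different gene models was not tested. The tables were scaled separately, and no difference between them was tested.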
